A study of Mus musculus with 7 samples.

Results

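The expression of 9 genes of retinoid and vitamin D signalling was followed across mouse primary keratinocytes in which Trp63 had been silenced. They were the retinoic acid receptor genes Rara, Rarb and Rarg, the retinoid X receptor gene Rxra, the vitamin D receptor gene Vdr, the retinoic acid binding protein genes Crabp1 and Crabp2, and the retinaldehyde dehydrogenase genes Aldh1a1 and Aldh1a3. Every probe set whose single gene symbol in the platform annotation was one of these names was taken, which gave 14 of the 22626 probe sets tested and covered all 9 genes, of 12393 genes measured. Keratinocytes are the epithelial cells of the epidermis, and Trp63 is the gene of p63, a p53-family transcription factor of stratified epithelia. Cells were transfected transiently with small interfering RNA (siRNA) and collected 48 h later, and total RNA was hybridised to 1 Affymetrix array per sample. There were 5 arrays of cells given a Trp63-specific siRNA (replicates 1, 2, 3, 4 and 7, called silenced) and 2 arrays of cells given a non-specific siRNA (replicates 5 and 6, called controls). The labels used here state no mouse strain, age or number of siRNA sequences. Whether a replicate was a culture of its own is not stated either. The p-values therefore cover only how far these samples differed among themselves, and that spread may be technical.

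Vitamin A reaches cells as retinol, which is oxidised to retinaldehyde by retinol dehydrogenases and then to retinoic acid by the Aldh1a enzymes. Retinoic acid is carried by the Crabp proteins and acts through heterodimers of a retinoic acid receptor with a retinoid X receptor, and the vitamin D receptor pairs with the same partner. In epidermis, RARγ and RXRα are known as the main retinoid receptor subtypes, retinoic acid is known to alter keratinocyte differentiation, and the vitamin D receptor is known for its role in differentiation and the hair cycle.

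The brightest Trp63 probe set read 457 to 541 on the silenced arrays and 1447 and 1683 on the controls (log2 difference -1.61, SE 0.088, adjusted p = 1e-05, limma). Array medians of intensity lay between 207 and 214. The summed intensity of 7 keratinocyte markers was 36588 to 39997 on silenced and 48817 to 51457 on control arrays, and 7 of these 7 genes were lower. Their log2 differences ran from -0.20 (Krt14) to -1.06 (Itgb4). Whether fewer keratinocytes or less message per cell lay behind this was not tested. The summed intensity of 9 melanocyte markers divided the arrays across the groups. It was 11481 and 12153 on silenced replicates 1 and 2 and 10230 on control replicate 5, against 6997 to 7382 on silenced replicates 3, 4 and 7 and 6839 on control replicate 6. These are called melanocyte-high and melanocyte-low arrays. Of these 9 markers, 0 passed limma's test between siRNA groups, and 0 had an unadjusted p under 0.05. Summed fibroblast markers (9 genes) ran from 1474 to 1769 on silenced and 1328 to 1549 on control arrays, immune cell markers (10 genes) from 1664 to 1878 and 1727 to 1817, endothelial markers (6 genes) from 701 to 781 and 741 to 815, and sebaceous gland markers (4 genes) from 5585 to 6113 and 4191 to 4587. Single markers passed inside the overlapping sums. Col1a1 of the fibroblast list was higher (log2 difference 0.44) and 8 did not pass. In the immune list Cd68 was higher (0.60), Tyrobp was lower (-0.20) and 8 did not pass. Of these 4 sebaceous gland markers, the lipid genes Scd1 and Plin2 were higher (log2 differences 0.56 and 0.37). The dimmer Mc5r and Elovl3 did not pass (-0.071 and -0.083).

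Among the 9 genes, Vdr was higher with Trp63 siRNA at 1 of its 2 probe sets and Aldh1a3 was lower at all 3 of its probe sets. The receptor genes Rara, Rarb, Rarg and Rxra, the binding protein genes Crabp1 and Crabp2, and Aldh1a1 did not pass the test (limma with Benjamini-Hochberg adjustment over 22626 probe sets, threshold 0.05). In counts, 1 of 14 member probe sets was higher and 3 were lower, beside 7.83% higher and 8.16% lower over all probe sets. The 3 lower probe sets belong to 1 gene and are not independent. The silenced values lay above both controls for 3 member probe sets and below both for 3, beside 14.2% and 22.4% of all probe sets (36.6% together). The median log2 difference of the 14 probe sets was -0.0032, and that of all probe sets was -0.034. Without regard to sign, these medians were 0.23 and 0.090. At an unadjusted limma p under 0.05 the counts were 3 and 3, beside 12.6% and 17.9% of all probe sets. Without control replicate 5 the counts by adjusted p were 2 higher and 0 lower, beside 4.95% and 3.94% of all probe sets (4 and 2 unadjusted, beside 10.6% and 11.3%). Without control replicate 6 they were 0 higher and 2 lower, beside 3.43% and 2.64% (1 and 3 unadjusted, beside 9.29% and 14.1%). Without silenced replicate 1 they were 1 higher and 4 lower, beside 10.3% and 14.0%.

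**Figure D1:**
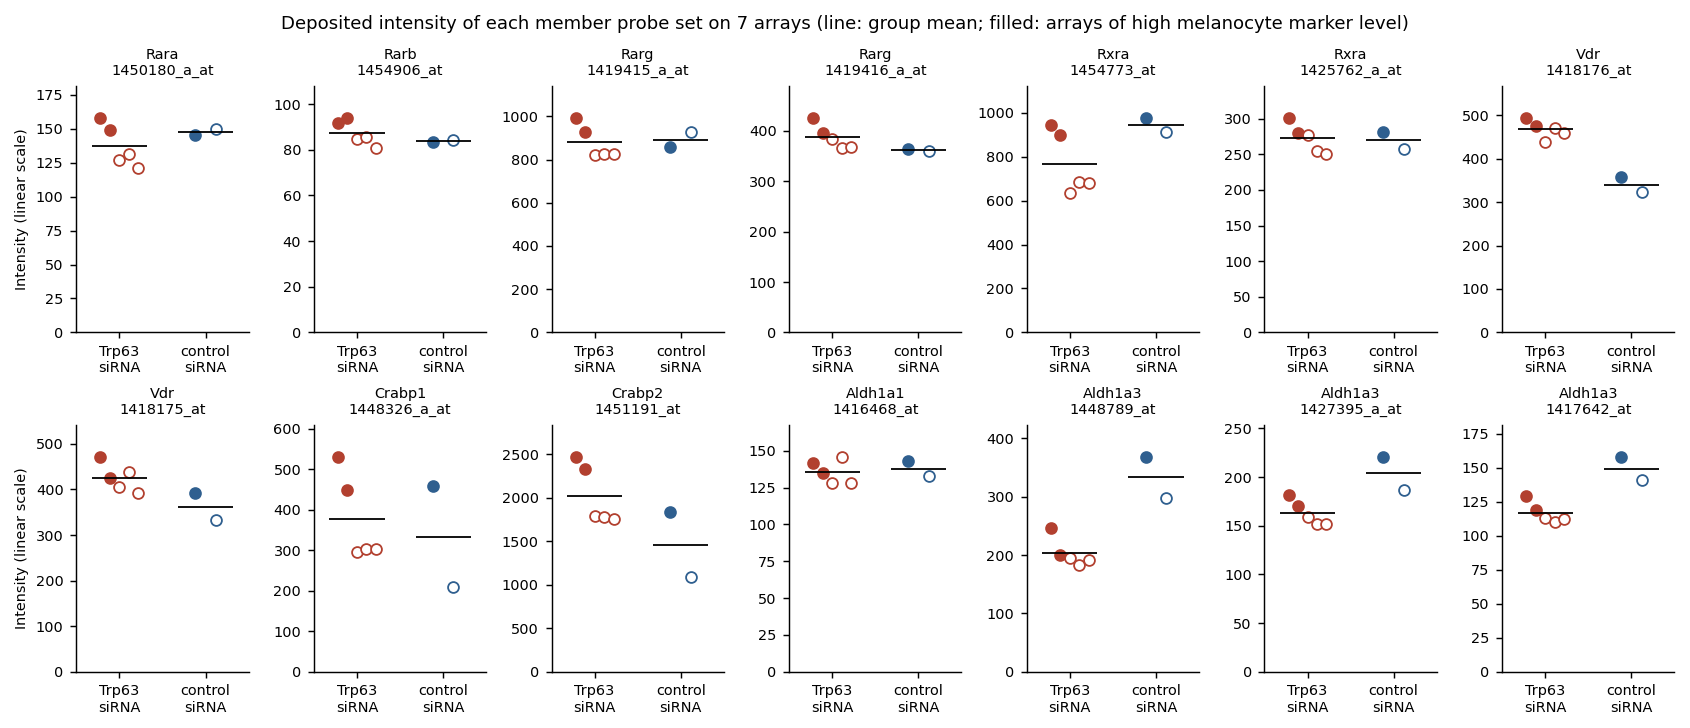
Deposited intensity (linear scale, each axis from 0) of the 14 member probe sets on 5 Trp63 siRNA and 2 control siRNA arrays, with a line at each group mean and filled points for the melanocyte-high arrays. The Aldh1a3 panels separate downward (for 1448789_at, silenced values up to 247 and controls from 298), the Vdr panels separate upward, and the Crabp1 and Crabp2 panels divide by melanocyte level within both groups.

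Vdr encodes the nuclear receptor of the active form of vitamin D. Its probe set 1418176_at read 494, 474, 439, 470.3 and 459 on silenced replicates 1, 2, 3, 4 and 7, and 357 and 323.5 on control replicates 5 and 6. The groups did not overlap, and the lowest silenced array lay above the higher control. The difference was 1.36-fold (467 ± 20.2, SD, n = 5, against 340.3 ± 23.7, SD, n = 2, log2 difference 0.44, SE 0.072, adjusted p = 0.00362, limma). It was 0.42 among the melanocyte-high arrays and 0.47 among the melanocyte-low arrays. The call ended without control replicate 6 (0.37, adjusted p = 0.0598, limma).

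The other Vdr probe set, 1418175_at, read 471, 426, 404, 438 and 392 on the silenced arrays, and 391 and 334 on the controls. Silenced replicate 7 and control replicate 5 lay next to each other, with no overlap between groups. The log2 difference was 0.23 (SE 0.091, 95% interval 0.021 to 0.43, adjusted p = 0.128, limma) and so did not pass. It passed with melanocyte level as a block (0.24, adjusted p = 0.0346, limma) and with the level of spike controls as a block (0.24, adjusted p = 0.0465, limma). Without control replicate 6 the difference was 0.12 (adjusted p = 0.572, limma). When both probe sets were averaged, Vdr differed by 0.33 on the log2 scale (adjusted p = 0.016, limma).

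Promoter sequences before the annotated starts are shown for Vdr, the receptor gene that was higher, and for Rarb and Cyp26a1, textbook genes of the retinoic acid response whose windows hold a paired receptor site. The sequences are from RefSeq on GRCm38.p6, read 5′ to 3′ on the gene's strand and ending at the base before the start. Capitals mark the nuclear receptor half-sites on either strand (AGGTCA as the consensus, with AGTTCA as a variant, GGGTCA as another and GGTTCA as the last), and the whole element where a pair stands as a direct repeat with 1 to 5 bases between.
Vdr, chr15:97908297-97908446, minus strand: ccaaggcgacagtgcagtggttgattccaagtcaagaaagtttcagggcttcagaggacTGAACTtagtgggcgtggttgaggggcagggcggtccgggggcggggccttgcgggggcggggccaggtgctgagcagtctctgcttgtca
Rarb, chr14:16575477-16575576, minus strand: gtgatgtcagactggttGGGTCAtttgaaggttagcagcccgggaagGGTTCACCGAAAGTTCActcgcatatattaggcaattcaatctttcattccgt
Cyp26a1, chr19:37697708-37697807, plus strand: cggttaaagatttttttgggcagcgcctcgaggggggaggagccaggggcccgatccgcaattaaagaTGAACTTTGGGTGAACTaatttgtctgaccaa

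The search covered 13 windows of 7 member genes, each from 250 bases before to 50 after a start. Crabp2 and Aldh1a3 had no window in the promoter reference used, so they were not searched. One of the 13 held a direct repeat, the Rarb window, beside 0.701% of 32817 windows. In Rarb it is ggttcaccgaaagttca on the gene's strand, from 53 to 37 bases before the start, with 5 bases between the half-sites (DR5), a spacing found in 0.0975% of windows. Cyp26a1 holds a DR5 on the opposite strand, from 32 to 16 bases before its start. The Vdr window had a single half-site, as 43.7% of windows had at least 1, and no direct repeat of these letters. The p53-family decamer half-site, the motif shared by p53, p63 and p73, matched the Crabp1 window at 1 position that reads on both strands, and 8.36% of windows held it. A match of letters is a description and shows no binding.

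Rarb encodes RARβ, the receptor whose own gene is induced by retinoic acid through the repeat printed above. Its probe set 1454906_at read 91.8, 94.0, 84.8, 85.5 and 80.7 on the silenced arrays and 83.4 and 84.4 on the controls. All values lay close to the lowest of each array (58.5 to 60.7), the groups overlapped, and the log2 difference was 0.047 (95% interval -0.062 to 0.16, adjusted p = 0.546, limma). Cyp26a1, the enzyme gene that clears retinoic acid and also carries the repeat, read 115.7, 106.6, 109.8, 106.9 and 107.0 on the silenced arrays and 117.4 and 109.0 on the controls (log2 difference -0.045, SE 0.043, adjusted p = 0.513, limma). Cyp26a1, Cyp24a1 and Cyp27b1 are described as known readouts of these pathways, outside the rule for named genes, and were chosen after their values were seen.

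Rarg encodes RARγ. Its probe set 1419415_a_at read 993, 928, 823, 825 and 828 on the silenced arrays and 856 and 927 on the controls. The controls lay inside the silenced range, and the log2 difference was -0.022 (95% interval -0.23 to 0.19, adjusted p = 0.896, limma). Probe set 1419416_a_at read 426, 396, 384, 366 and 368 against 364 and 361. Here the silenced arrays lay above both controls by a small margin, with a log2 difference of 0.093 (95% interval -0.075 to 0.26, adjusted p = 0.436, limma). The 2 intervals leave room for changes in either direction of at most 0.26 on the log2 scale. On both probe sets silenced replicates 1 and 2 were the highest silenced arrays.

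Rara encodes RARα. It read 158, 149, 127, 132 and 121 on the silenced arrays and 146 and 149.7 on the controls, a difference of -0.099 on the log2 scale (95% interval -0.30 to 0.10, adjusted p = 0.487, limma). Both controls fell between silenced replicate 1 and silenced replicate 4. Among the melanocyte-high arrays the log2 difference was 0.068, and among the melanocyte-low arrays it was -0.22.

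Rxra encodes RXRα, the shared partner of the retinoic acid and vitamin D receptors, and its 2 probe sets differed. Probe set 1454773_at read 945, 899, 635, 684 and 680.5 on silenced replicates 1, 2, 3, 4 and 7, and 978 and 911 on the controls. Silenced replicates 3, 4 and 7 lay well below both controls, while replicates 1 and 2 lay beside them. The log2 difference was -0.31 (SE 0.16, 95% interval -0.66 to 0.041, adjusted p = 0.213, limma), with -0.084 among the melanocyte-high arrays and -0.44 among the melanocyte-low arrays. It passed without silenced replicate 1 (-0.39, adjusted p = 0.048, limma) and with melanocyte level as a block (-0.27, adjusted p = 0.0424, limma). Probe set 1425762_a_at read 301, 279.7, 277, 255 and 250.2 against 282 and 257, with overlap and a log2 difference of 0.014 (95% interval -0.17 to 0.20, adjusted p = 0.927, limma).

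**Figure D2:**
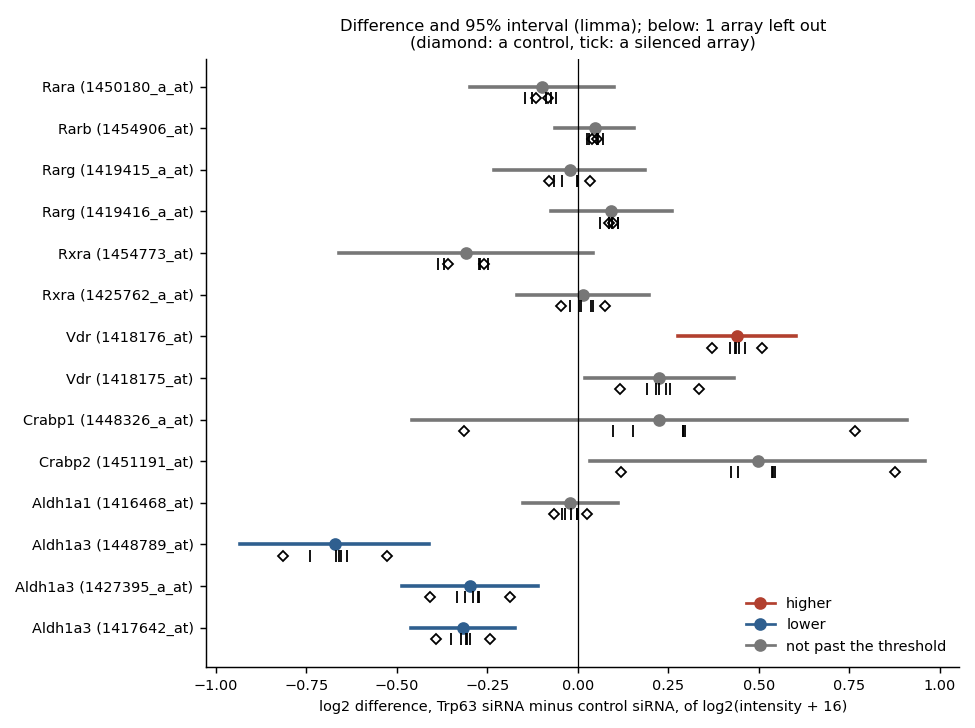
Log2 difference between Trp63 siRNA and control siRNA for each member probe set with its 95% interval from limma, and beneath it the difference with 1 array left out (diamonds for a control, ticks for a silenced array). Vdr 1418176_at (0.44) and the 3 Aldh1a3 probe sets (-0.67, -0.30 and -0.32) passed, and the widest interval is that of Crabp1, whose 2 diamonds lie on opposite sides of 0.

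Aldh1a3 encodes a retinaldehyde dehydrogenase, which makes retinoic acid, and it had the largest drop among the 14 probe sets. Its brightest probe set, 1448789_at, read 247, 200.0, 195, 183 and 191 on the silenced arrays and 368 and 298 on the controls. Each silenced array lay below both controls. The mean was 203 ± 25.4 (SD, n = 5) against 333 ± 49.0 (SD, n = 2), a 1.59-fold decrease (log2 difference -0.67, SE 0.12, adjusted p = 0.00448, limma). In bulk RNA, less message per cell and fewer cells of a type cannot be told apart.

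Probe set 1417642_at of Aldh1a3 read 129, 119, 113, 110.1 and 112.5 on the silenced arrays and 158 and 141 on the controls (log2 difference -0.32, SE 0.063, adjusted p = 0.00949, limma). Probe set 1427395_a_at read 181, 170.3, 159, 152 and 151 against 220.5 and 187 (log2 difference -0.30, SE 0.083, adjusted p = 0.0409, limma). All 3 thus showed silenced arrays below both controls. The brightest probe set differed by -0.69 among the melanocyte-high arrays and by -0.61 among the melanocyte-low arrays. Keratinocyte markers were lower in the same arrays, and their part in the Aldh1a3 difference was not tested. Without control replicate 5, the higher control on all 3, the calls ended. The log2 differences were then -0.53 for 1448789_at (adjusted p = 0.0582, limma), -0.24 for 1417642_at (0.107) and -0.19 for 1427395_a_at (0.327). The call of 1427395_a_at also ended without any of silenced replicates 2, 3, 4 and 7 (limma adjusted p between 0.0596 and 0.0848) or control replicate 6 (0.0534).

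Aldh1a1, which encodes a second retinaldehyde dehydrogenase, read 142, 135, 128, 146 and 128 on the silenced arrays and 143 and 133 on the controls. The groups overlapped fully, with a log2 difference of -0.021 (95% interval -0.15 to 0.11, adjusted p = 0.841, limma).

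Crabp2, the binding protein that hands retinoic acid to its receptors in the nucleus, was bright. Its probe set read 2467, 2332, 1788, 1777 and 1756 on silenced replicates 1, 2, 3, 4 and 7, and 1842 and 1083.5 on control replicates 5 and 6. Control replicate 6 was the lowest of the 7 arrays and control replicate 5 lay among the silenced ones. The log2 difference was 0.50 (SE 0.20, 95% interval 0.035 to 0.96) and did not pass after adjustment (adjusted p = 0.137, limma). It was 0.88 without control replicate 5 (adjusted p = 0.033, limma) and 0.12 without control replicate 6 (adjusted p = 0.759, limma).

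Crabp1, a related cytoplasmic carrier, varied more within each group than between them. It read 529.6, 449, 297, 302 and 302 on the silenced arrays and 458 and 208 on the controls, so that the arrays fell into a high set (silenced 1 and 2, control 5) and a low set (silenced 3, 4 and 7, control 6). The log2 difference was 0.23 (SE 0.30, 95% interval -0.46 to 0.91, adjusted p = 0.651, limma). It was 0.77 without control replicate 5 and -0.31 without control replicate 6, so its direction rested on which control was read.

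These sets are the melanocyte-high and melanocyte-low arrays. From low to high level, Crabp1 differed by 0.67 on the log2 scale among silenced arrays and by 1.08 between the controls. Crabp2 differed by 0.43 and 0.76 in the same way. Rxra 1454773_at differed by 0.46 among silenced arrays and by 0.10 between the controls, and Vdr 1418176_at by 0.084 and 0.14. Among the melanocyte-high arrays the siRNA groups differed by 0.089 in Crabp1 and 0.38 in Crabp2, and among the melanocyte-low arrays by 0.50 and 0.70. With melanocyte level as a block, Crabp2 passed (0.55, SE 0.071, adjusted p = 0.000528, limma) and Crabp1 did so narrowly (0.30, adjusted p = 0.0479, limma). In that fit 4 member probe sets were higher and 4 lower, beside 11.3% and 12.8% of all probe sets (24.1% together). The division was taken from these same arrays, and the part of melanocytes or of a shared preparation in it was not tested.

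**Figure D3:**
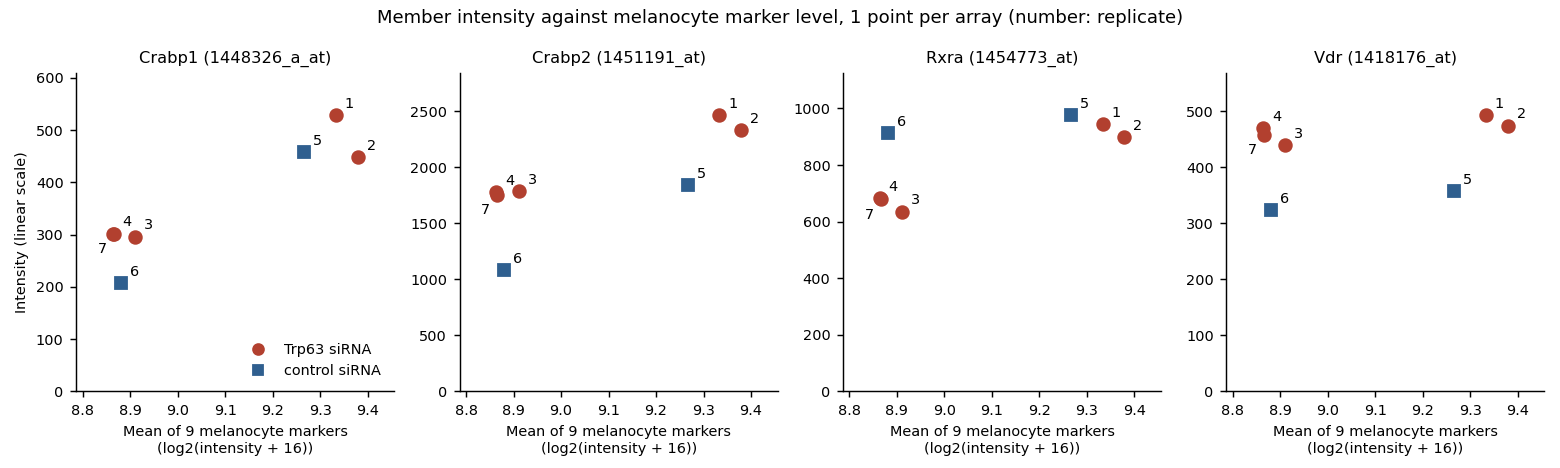
Intensity of Crabp1, Crabp2, Rxra 1454773_at and Vdr 1418176_at against the mean log2 level of 9 melanocyte markers, 1 point per array with its replicate number, circles for Trp63 siRNA and squares for control siRNA. Crabp1 and Crabp2 are higher at the right in both groups, Rxra is low on silenced replicates 3, 4 and 7 (635 to 684) and not on control replicate 6 (911), and all Vdr circles lie above both squares.

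The 6 pathway lists held 96 measured genes that act around these receptors, of 117 listed. Of the 96, 7 were higher, 7 were lower and 82 did not pass, which is 14.6% called. Over all 12393 genes, each read at its brightest probe set, 8.03% were higher and 8.56% lower, 16.6% in all (12.7% and 19.0% at an unadjusted p under 0.05). Their median log2 difference was -0.037 and that of all genes was -0.041. Without control replicate 5 or 6 fewer of these genes passed in each direction, as did fewer of all probe sets. Without silenced replicate 1 the counts were 9 higher and 13 lower, beside 10.3% and 14.0% of all probe sets. No share over all genes was counted for these fits. The counts here and for single lists below therefore show nothing particular to the lists.

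Among 28 genes of retinoid uptake, storage, synthesis and breakdown, 1 was higher, 5 were lower and 22 did not pass (median -0.083). Rdh10, the retinol dehydrogenase gene of the first oxidation step, read 521, 468.5, 436, 421 and 446 on the silenced arrays and 217 and 205 on the controls. Every silenced array lay well above both controls, and the rise was 2.09-fold (log2 difference 1.06, SE 0.087, adjusted p = 8.8e-05, limma), a call that held with each single array left out. Rdh10 and Aldh1a3, which act in sequence on retinol and retinaldehyde, thus differed in opposite directions.

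The lower genes were Rbp2, Fabp5, Retsat, Adh7 and Rdh12. Rbp2, a cellular retinol binding protein gene, was 1.47-fold lower (162 ± 12.5, SD, n = 5, against 246 ± 30.3, SD, n = 2, adjusted p = 0.0024, limma). Fabp5, a fatty acid binding protein gene of keratinocytes whose product also binds retinoic acid, read 7713 ± 329 (SD, n = 5) against 9350 ± 88.0 (SD, n = 2), a 1.21-fold decrease (adjusted p = 0.00227, limma), and its second probe set was lower too (-0.51, adjusted p = 0.000779, limma). Retsat, which encodes retinol saturase, was 1.46-fold lower (adjusted p = 0.00393, limma), and its second probe set was lower too (-0.29, adjusted p = 0.000903, limma). Adh7, an alcohol dehydrogenase gene with activity on retinol, was dim and 1.14-fold lower (adjusted p = 0.0188, limma), with a second probe set also lower (-0.43, adjusted p = 0.000312, limma). Rdh12, which encodes a retinaldehyde reductase and was named after its values were seen, was 1.41-fold lower (adjusted p = 0.0476, limma). Its call ended in 10 of 17 alternatives, its difference of -0.50 was -0.30 without control replicate 5 (adjusted p = 0.37, limma), and its second probe set did not pass (-0.34, adjusted p = 0.0961, limma). Retsat lost its call without control replicate 6 (adjusted p = 0.0604, limma), and Adh7 lost its own without either control or silenced replicate 4. The list then had 3 lower genes without control replicate 5 or silenced replicate 4, 2 without control replicate 6, and 2 higher genes without silenced replicate 3.

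Of 9 genes of vitamin D synthesis, activation, transport and breakdown, 2 were higher and 0 lower by limma's adjusted p (4 and 1 at an unadjusted p under 0.05). Dhcr7, whose enzyme turns the vitamin D precursor 7-dehydrocholesterol into cholesterol, read 2674 ± 86.6 (SD, n = 5) against 537 ± 1.42 (SD, n = 2), a log2 difference of 2.28 (SE 0.056, adjusted p = 2.46e-07, limma). Sc5d, whose enzyme makes that precursor, differed by 0.32 at its brightest probe set (adjusted p = 0.0133, limma) and by 0.011 at its second, much dimmer one (adjusted p = 0.897, limma). With both averaged the difference was 0.16 (adjusted p = 0.0668, limma), so 1 gene of the list was higher. Sc5d lost its call without control replicate 5 (adjusted p = 0.064, limma) or 6 (0.112), which again left 1 higher gene in each case. Cyp27b1, the activating hydroxylase gene, was near the floor at 81.2 to 88.4 on silenced arrays and 86.3 and 87.6 on controls. Cyp24a1, the vitamin D breakdown enzyme and a standard target of the receptor, read 108.5, 108.7, 102.1, 106.9 and 98.0 on the silenced arrays and 111.1 and 108.6 on the controls (log2 difference -0.059, SE 0.043, adjusted p = 0.391, limma).

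Of 17 other RXR genes, RXR partners and related nuclear receptors, 1 was higher and 0 lower by limma's adjusted p (2 and 2 unadjusted). It was Pparg, at a dim 104 against 92.1 (log2 difference 0.15, adjusted p = 0.0292, limma), and it lost its call without control replicate 6 (0.091, adjusted p = 0.245, limma), without silenced replicate 2, 4 or 7, and with eBayes without a variance trend (adjusted p = 0.0576, limma). Of 16 coregulator genes, 1 was lower and 0 higher (3 and 2 unadjusted). Hr, which encodes the hairless corepressor that binds the vitamin D receptor, read 1109, 1025, 763, 853 and 873 on the silenced arrays and 1328 and 1504.5 on the controls. Each silenced array lay below both controls (1.53-fold lower, log2 difference -0.62, SE 0.14, adjusted p = 0.0147, limma), and its second probe set was lower as well (-0.27, adjusted p = 0.0483, limma). The Hr difference was -0.31 among the melanocyte-high arrays and -0.85 among the melanocyte-low arrays, and the call ended without control replicate 5 (adjusted p = 0.0554, limma) or 6 (0.14). Without silenced replicate 1, 2 receptor genes and 2 coregulator genes were lower and 1 coregulator gene was higher.

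Of 16 genes known to respond to retinoic acid, 1 was higher and 0 lower by limma's adjusted p (1 and 0 unadjusted). Krt4, a keratin gene of internal stratified epithelia, read 713, 718, 275, 290.2 and 290.1 on the silenced arrays and 142 and 140.5 on the controls. All silenced arrays lay above both controls, with replicates 1 and 2 far above the rest (log2 difference 1.45, SE 0.39, adjusted p = 0.0362, limma). The difference was 2.21 among the melanocyte-high arrays and 0.94 among the melanocyte-low arrays, and the call ended without control replicate 5 or 6 (adjusted p from limma 0.17 in both) or silenced replicate 2 (0.055). It also ended with eBayes without a trend (0.0542), with robust eBayes (0.10) and with spike level as a block (0.0528), so 6 of 17 alternatives ended it.

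Of 15 genes known to respond to vitamin D, 2 were higher and 1 was lower. Thbd, which encodes the anticoagulant receptor thrombomodulin, read 146, 153, 122, 122 and 125 on the silenced arrays and 360.1 and 329 on the controls. This was a 2.42-fold decrease with no overlap (log2 difference -1.27, SE 0.092, adjusted p = 5.08e-05, limma). Igfbp3, a binding protein gene for insulin-like growth factors, was higher (643 ± 80.8, SD, n = 5, against 406 ± 2.31, SD, n = 2, log2 difference 0.63, adjusted p = 0.00775, limma), as was the lipopolysaccharide co-receptor gene Cd14 (259.8 ± 20.9, SD, n = 5, against 175.5 ± 3.87, SD, n = 2, log2 difference 0.52, adjusted p = 0.00271, limma). The call of Igfbp3 ended without control replicate 5 (adjusted p = 0.0642, limma) or 6 (0.0705), which left 1 higher gene.

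**Figure D4:**
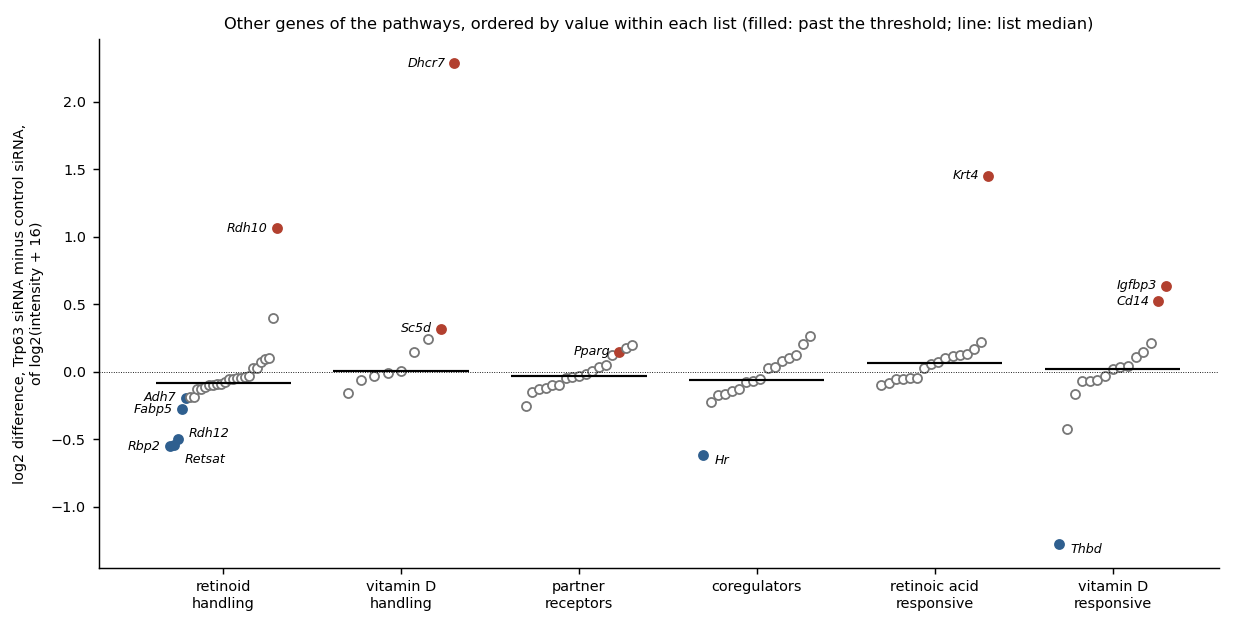
Log2 difference between Trp63 siRNA and control siRNA for the genes of 6 lists, 1 point per gene ordered by value within its list, filled and named where the gene passed limma's threshold, with a line at each list median. Most points lie near 0, with medians from -0.083 to 0.063, and Dhcr7 (2.28), Krt4 (1.45), Rdh10 (1.06) and Thbd (-1.27) stand farthest out.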

How the data were processed

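Each array had 1 deposited intensity per probe set, on a linear scale. How the authors summarised, background-corrected and normalised the probes was not given in the sources used here. Array medians differed by at most 0.043 on the log2 scale, so values were used as deposited. The 64 control probe sets among 22690 were dropped. Symbols came from the platform annotation (20380 probe sets with 1 symbol, 691 with several, 1555 with none), updated by Entrez ID for the lists. Values were tested as log2(intensity + 16), and folds given on that scale understate changes of dim genes. Groups were compared with limma 3.58.1 in R 4.3.3 (eBayes with a variance trend, Benjamini-Hochberg over 22626 probe sets), with no filter on dim probe sets. The procedure was tested on simulated data. Every probe set of a member is reported, and other genes were read at their brightest probe set. From each list up to 5 called genes with the smallest p were named, or the 2 with the smallest p where 0 passed. The members and lists were chosen with earlier results of these data known. Having 2 controls limits the precision of every value. Alternatives were quantile normalisation, centring on medians, other pseudocounts (1 and 64), removal of probe sets under the 25th or 50th percentile of level, eBayes without trend or robust, each array left out (a single control is then taken to vary as the silenced arrays do), and melanocyte or spike control level as a block of arrays, each divided at its largest gap. Figures were drawn with matplotlib 3.10.9.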

Additional observations from a re-analysis of the deposited data

Results flagged for a closer look

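One member value stood apart from its group on the linear intensity scale. Aldh1a3 probe set 1448789_at read 247.1 on silenced replicate 1, and the next highest silenced array read 200.0, a gap of 0.73 of the group's whole range against a critical value of 0.71 for 5 arrays (Dixon's test). The value still lay below both controls. The same test was made for each of the 14 member probe sets in the silenced group, and chance marks about 1 in 20 such groups.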

How the results depend on the processing

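The direction of every called member probe set (Vdr 1418176_at and the 3 of Aldh1a3) was the same under all alternatives in which it was tested. Leaving out 1 array gave 0 to 2 higher and 0 to 4 lower member probe sets, 3 to 9 higher and 3 to 13 lower genes of the pathway lists, and 776 to 2326 higher and 598 to 3176 lower probe sets in all, with the lowest counts of all probe sets without control replicate 6. With melanocyte level as a block, 4 member probe sets were higher and 4 lower, beside 2563 higher (11.3%) and 2895 lower (12.8%) probe sets in all. In that fit 13 of the 96 pathway genes were higher, and no share over all genes was counted. With spike level as a block, 2 member probe sets were higher, beside 1778 probe sets in all. The filter at the 50th percentile left 9 member probe sets and 1 of them lower, since it removed the other 2 of Aldh1a3. Among members that did not pass, leaving out 1 array gave -0.079 to 0.034 for Rarg 1419415_a_at (above 0 without silenced replicate 3, at 0.00026, or control replicate 6), -0.048 to 0.076 for Rxra 1425762_a_at (below 0 without control replicate 6 or silenced replicate 1, at -0.020), -0.31 to 0.77 for Crabp1 (below 0 without control replicate 6) and -0.067 to 0.026 for Aldh1a1 (above 0 without control replicate 5). Aldh1a1 was at 0.015 with quantile normalisation. The cause of these changes was not tested. No alternative moved the median difference of all probe sets by more than 0.018. No paired analysis was possible because no replicate number occurs in both groups. Rarb, Cyp26a1, Cyp24a1 and Cyp27b1 were dim, and Rara and Aldh1a1 also lay below the median intensity of every array. In all of these genes a change may go unseen. The called Aldh1a3 probe sets were not bright either. By mean level over the arrays, 1417642_at was at percentile 28 of all probe sets, 1427395_a_at at 42.6 and 1448789_at at 53.2.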
